A study of Saccharomyces cerevisiae with 10 samples.

Results

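The genes described here are those of the yeast mitochondrial genome, taken as all rows of the deposited table whose identifier starts with Q0. They are 31 of the 7032 rows, namely 28 mRNA rows, 2 rRNA rows (15S and 21S) and 1 non-coding RNA row, RPM1. The mRNAs are given apart from the rRNAs, because rRNA was depleted before sequencing. The series compared naive cells, meaning cells without the prion named [BIG+], with [BIG+] cells, which carry it. This prion is a protein-based state that daughter cells inherit. Both states are labelled wild type in the strain background BY4741, with 5 libraries of total RNA each. Each library came from 1 of 5 independent colonies of its state, grown in rich medium (YPD) at 30 °C to an OD of 1.0. The labels give the naive libraries one name stem (YDJ128) and the [BIG+] libraries another (YDJ1952). If these are strains, any other difference between them and the prion cannot be told apart.

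The yeast mitochondrial genome encodes a few hydrophobic subunits of the respiratory chain and of ATP synthase, one ribosomal protein, both rRNAs of the mitochondrial ribosome, a set of tRNAs and the RNA part of mitochondrial RNase P. It is transcribed by a nuclear-encoded RNA polymerase, Rpo41, with its partner Mtf1, from short conserved promoters into long precursors that are cut and spliced. Several introns of COX1, COB and 21S rRNA carry reading frames for maturases, reverse transcriptases or homing endonucleases. Fermenting cells in glucose can grow without a working respiratory chain, and part of a culture may lose mitochondrial DNA.

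All 10 libraries held mitochondrial mRNA. Levels are in TPM (transcripts per 1e6 transcripts), a per-length share of each library that keeps no sequencing depth, so depth is unknown. LEU2, MET17 and URA3, which BY4741 lacks, were listed at 0 in every library, and HIS3, of which BY4741 carries a partial deletion, was at 18.4 to 54.99 TPM. Between 6241 and 6325 rows were above 0 in a library. One library stood apart: in [BIG+] replicate 5 the 22 cytosolic rRNA rows held 17.3% of the total, against 0.606% to 1.68% in the other 9. Among them RDN25-1, mature 25S rRNA, was at 38136 TPM and RDN18-1, mature 18S rRNA, at 32935 TPM, where both were listed at 0 in the other 9 libraries. Results on rRNA are therefore given with and without that library. In whole cultures, fewer cells with mitochondrial DNA and less mitochondrial RNA per cell cannot be told apart.

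Of the 31 rows, 22 matched the RefSeq annotation of build R64, and 9 (Q0010, Q0017, Q0032, Q0092, Q0142, Q0143, Q0144, Q0182 and Q0297) did not. The sequences below are from that RefSeq genome, forward strand, and show 3 features of these rows: length, base composition and shared exons. Whether these features act on the values was not tested. G and C are in capitals. ATP8 is a very short gene, VAR1 (first 150 bases shown) is almost free of G and C, and OLI1 is the richest in them. COX1 exon 1 also belongs to the annotated frames AI1, AI2, AI3, AI4 and AI5_ALPHA.
ATP8, MT:27666-27812: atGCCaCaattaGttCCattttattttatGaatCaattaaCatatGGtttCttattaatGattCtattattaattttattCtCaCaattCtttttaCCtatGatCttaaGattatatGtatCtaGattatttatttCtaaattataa
OLI1, MT:46723-46953: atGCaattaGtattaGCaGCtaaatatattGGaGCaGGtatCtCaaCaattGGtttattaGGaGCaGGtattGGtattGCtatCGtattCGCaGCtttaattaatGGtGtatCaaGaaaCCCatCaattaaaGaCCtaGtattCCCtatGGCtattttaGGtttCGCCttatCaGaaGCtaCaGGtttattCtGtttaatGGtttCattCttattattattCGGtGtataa
VAR1, MT:48901-49050: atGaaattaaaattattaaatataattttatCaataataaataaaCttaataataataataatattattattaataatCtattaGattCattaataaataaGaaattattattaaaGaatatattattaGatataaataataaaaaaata
COX1 exon 1, MT:13818-13986: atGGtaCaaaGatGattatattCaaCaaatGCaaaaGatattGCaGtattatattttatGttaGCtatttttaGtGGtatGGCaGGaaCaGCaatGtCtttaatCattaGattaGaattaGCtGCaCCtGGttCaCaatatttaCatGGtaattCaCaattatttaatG

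ATP8, a small subunit of the ATP synthase, was listed at 0 TPM in every library. Its gene is 147 bases long, and all 69 mRNA rows of the table with a RefSeq gene of 150 bases or fewer were listed at 0 throughout, as were 18 of 60 of the next length class, up to 200 bases, and 0 of 84 of the one after it, up to 250 bases. ATP8 thus shared its 0 with its whole length class. Of the rows without a RefSeq match, Q0017, Q0032, Q0092, Q0142, Q0143 and Q0297 were also at 0 in all libraries, which makes 7 members in all.

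Of the 8 mRNAs for respiratory chain, ATP synthase and ribosomal proteins, OLI1 stood highest. OLI1 encodes the ring-forming subunit 9 of ATP synthase (MT, 46723 to 46953). In naive replicates 1 to 5 it was at 954, 789, 894, 1007 and 1095 TPM. In [BIG+] replicates 1 to 5 it was at 917, 1021, 843, 1231 and 893 TPM. The states overlapped, and OLI1 varied little, with a coefficient of variation of 13.4% over the 10 libraries.

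The 3 mitochondrial subunits of cytochrome c oxidase, the last enzyme of the respiratory chain, were also well above the filter, with COX2 and COX1 next to OLI1 in mean level. COX1, the catalytic subunit (MT, 13818 to 26701, 8 exons), was at 54.6, 45.9, 168, 154 and 323 TPM in naive replicates 1 to 5. In [BIG+] replicates 1 to 5 it was at 52.7, 74.98, 126, 192 and 244 TPM. The lowest values lay in replicates 1 and 2 of both states and the highest in replicate 5 of both, and the states overlapped. COX2, the subunit that takes electrons from cytochrome c (MT, 73758 to 74513), was at 103, 125, 176, 161 and 276 TPM in naive cells. In [BIG+] cells it was at 94.8, 104, 139, 208 and 212 TPM. COX2 was likewise lowest in replicates 1 and 2 and highest in replicate 5, and [BIG+] was the higher state in 1 of 5 pairs. COX3, the third core subunit (MT, 79213 to 80022), was at 75.03, 71.5, 123, 110 and 192 TPM in naive and at 78.9, 83.9, 107, 151 and 173 TPM in [BIG+] replicates 1 to 5.

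COB encodes cytochrome b, the only mitochondrially encoded subunit of the bc1 complex (MT, 36540 to 43647, 6 exons). It was at 83.0, 66.6, 130, 106 and 197 TPM in naive cells. In [BIG+] cells it was at 92.3, 111, 122, 194 and 166 TPM, so the states overlapped and [BIG+] was higher in 3 of 5 pairs. ATP6, the proton channel subunit of ATP synthase (MT, 28487 to 29266), was at 28.0, 19.3, 60.7, 48.2 and 112 TPM in naive cells. In [BIG+] cells it was at 31.0, 42.6, 46.0, 86.5 and 75.3 TPM. For both genes the lowest naive and the lowest [BIG+] values lay in replicates 1 and 2. VAR1, a protein of the small mitochondrial ribosomal subunit (MT, 48901 to 50097), lay between 0.295 and 0.535 TPM in all libraries and was below the filter of 1 TPM.

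**Figure D1:**
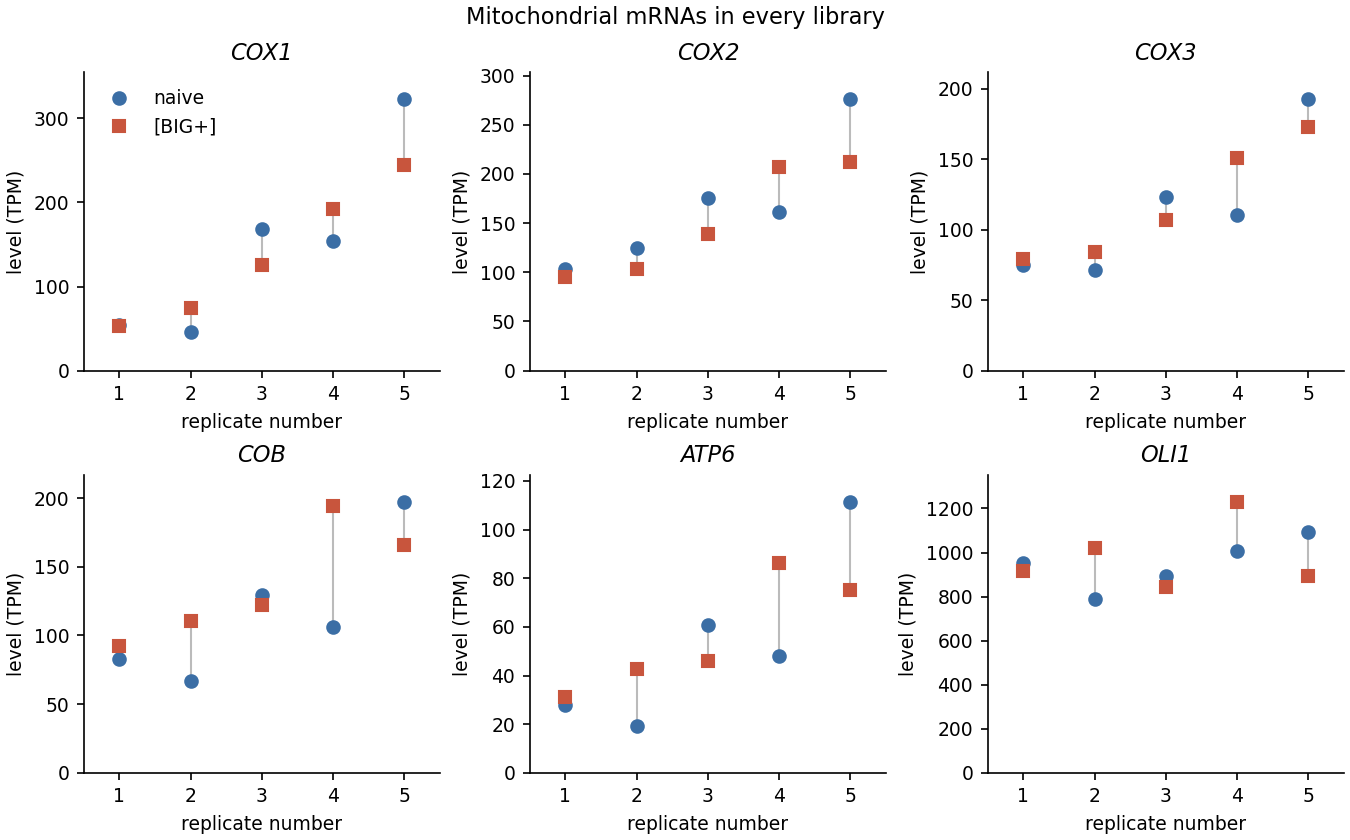
Level in TPM (vertical axis) of 6 mitochondrial mRNAs in each library, by replicate number (horizontal axis), with naive libraries as circles, [BIG+] libraries as squares and a grey line between libraries of the same number. COX1 runs from 45.9 to 323 TPM with the lowest values in replicates 1 and 2 of both states, while OLI1 stays between 789 and 1231 TPM.

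None of the 8 mRNAs was called different between the states. The test was limma on log2(TPM + 1), run over all 5732 rows whose mean reached 1 TPM, and a row was called at an adjusted p under 0.05. Of the 8 mRNAs 6 passed the filter. On this scale, which understates the change of low rows, the fold changes ([BIG+] minus naive) were 0.03 ± 0.523 for COX1, -0.15 ± 0.292 for COX2 and 0.08 ± 0.293 for COX3 (SE, n = 5 each; limma). They were 0.28 ± 0.286 for COB, 0.22 ± 0.409 for ATP6 and 0.04 ± 0.155 for OLI1. All 6 adjusted p values were 0.999. The labels give replicate numbers but no day or batch shared by equal numbers. With the replicate number as a block, which takes out what same-numbered libraries share, the SE of COX1 was 0.161 and that of COX2 0.122. The lowest adjusted p of the 6 was then 0.562, for COB (limma). Their median fold change was 0.06, beside a median of -0.06 over all 5732 rows, of which 0% were called without the block and 0.611% with it. The sign turned when single libraries were left out for 5 of the 6, all but COB. Over all 15 mRNA rows that passed the filter, 13 had positive and 2 negative fold changes, with a median of 0.18, beside 33.7% positive over all 5732 rows. None of the 15 was called without a block, with the replicate block, or with sets of numbers (1 and 2, 3 and 4, 5) as the block, where 0.75% of all rows were called. At an unadjusted p under 0.05 there were 2 of the 15 without and 3 with the replicate block (limma). Over all 5732 rows there were 96 (1.67%) without and 650 with that block.

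COX1 means differed more between sets of replicate numbers than between the states. Mean COX1 over both states was 57.1 TPM in the 4 libraries numbered 1 and 2, 160 TPM in the 4 numbered 3 and 4, and 283 TPM in the 2 numbered 5. The ranges of these 3 sets did not overlap for COX1, COX2 or COX3, and did for ATP6, COB and OLI1. For OLI1 the same means were 920, 994 and 994 TPM. The ratio of OLI1 to COX1 was accordingly between 13.6 and 17.5 in libraries numbered 1 and 2 and 3.39 and 3.66 in those numbered 5. These sets were known from an earlier look at the data, so the differences between them are a description, and growth, handling and library preparation by number were not tested. Summed nuclear subunits of cytochrome c oxidase lay between 1279 and 1840 TPM, of the bc1 complex between 575 and 971 TPM and of ATP synthase between 3034 and 4416 TPM, with the highest value in naive replicate 5 for each. Single nuclear subunits could spread more than their sums. ATP2, a catalytic subunit of ATP synthase singled out after its values were seen, was at 116, 103, 185, 202 and 353 TPM in naive and at 105.3, 135, 159, 197 and 349 TPM in [BIG+] cells, lowest in replicates 1 and 2 and highest in replicate 5 as COX1 was. Other nuclear subunits did not share this order. COX8, of cytochrome c oxidase and singled out likewise, was at 208, 214, 114, 119 and 176 TPM in naive cells. In [BIG+] cells it was at 180, 179, 116, 140 and 173 TPM, so it was highest in replicates 1 and 2 of both states.

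The 8 mRNAs summed to a mean of 1550 ± 409 TPM for naive libraries and of 1583 ± 326 TPM for [BIG+] libraries (n = 5 each, SD). Relative to nuclear mRNA the sum was lowest in naive replicate 2, at 0.235%, and highest in [BIG+] replicate 4, at 0.477%. The means were 0.327 ± 0.0718% and 0.338 ± 0.0808%, and [BIG+] was higher in 2 of 5 pairs. A sum over the members was not tested.

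Levels of the mRNA rows went with base composition. Over the 18 annotated mRNA rows above 0, mean level and G and C content of the exons had a Spearman rho of 0.862, given as a description without a p-value, since the rows share libraries and in part exons. OLI1 had 33.3% G and C, COX3 30.0%, COX1 29.9%, COB 27.7% and COX2 26.7%. The intron reading frames had at most 26.5% (AI2). Their mean levels were below those of the 6 of the 8 mRNAs that passed the filter. Base composition and kind of row thus cannot be fully told apart. At the low end VAR1 had 10.4%, and Q0255 had 15.4% with 1.46 to 5.45 TPM. The whole mitochondrial genome had 17.1% and the median nuclear mRNA gene 39.7%. Rates of recovery in library preparation and mapping by base composition were not tested.

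**Figure D2:**
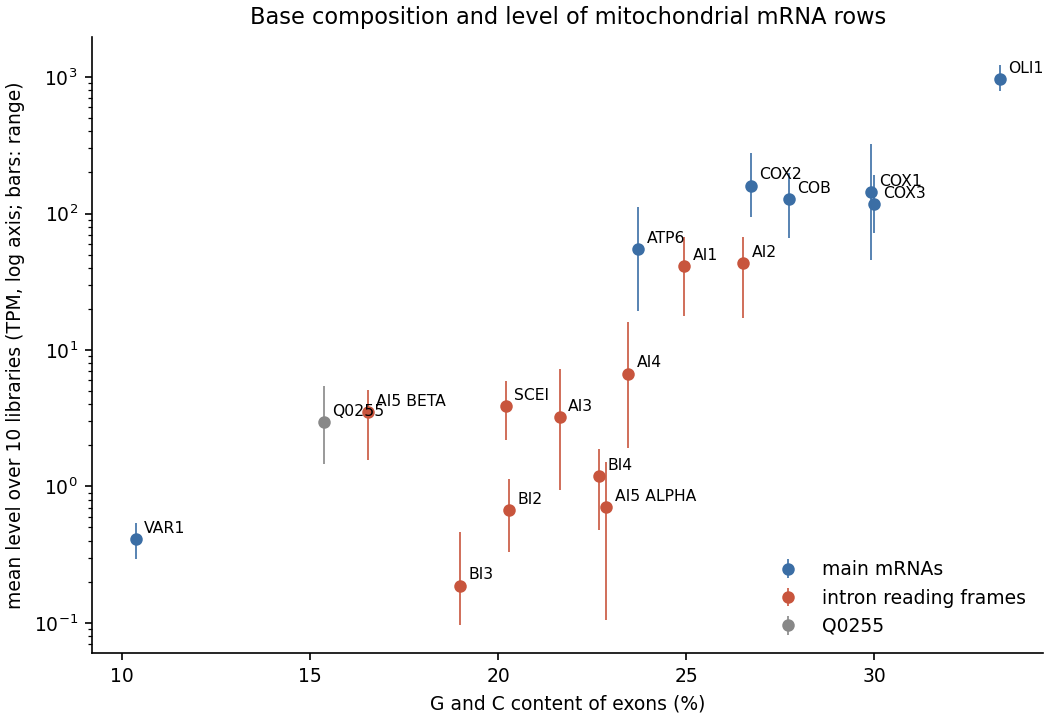
Mean level over the 10 libraries in TPM (vertical axis, log scale, bars from the lowest to the highest library) against the G and C content of the annotated exons in percent (horizontal axis) for 18 mitochondrial mRNA rows. OLI1 at 33.3% lies highest and the intron reading frames BI2 and BI3 and VAR1 lie lowest.

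The intron reading frames covered 10 rows. Introns 1 and 2 of COX1 are group II introns whose frames, AI1 and AI2, encode maturases with reverse transcriptase activity. AI1 (MT, 13818 to 16322) was at 33.5, 17.7, 31.8, 35.7 and 50.8 TPM in naive and at 40.4, 48.6, 40.4, 66.8 and 47.3 TPM in [BIG+] replicates 1 to 5. AI2 (MT, 13818 to 18830) was at 29.7, 17.1, 39.6, 41.8 and 67.2 TPM in naive and at 32.1, 38.2, 42.2, 64.3 and 59.98 TPM in [BIG+]. Both were higher in [BIG+] in 4 of 5 pairs, with overlap between the states. The other frames were lower, and all had at most 23.5% G and C. AI3, a homing endonuclease frame, lay between 0.936 and 7.30 TPM, AI4, whose product can act as maturase and endonuclease, between 1.91 and 16.1 TPM, and AI5_BETA between 1.56 and 5.07 TPM. In COB, the maturase frames BI4, BI2 and BI3 lay between 0.482 and 1.89 TPM, 0.333 and 1.14 TPM, and 0.0967 and 0.467 TPM. AI5_ALPHA, an endonuclease frame, lay between 0.106 and 1.5 TPM. SCEI, the homing endonuclease I-SceI inside the intron of 21S rRNA (MT, 61022 to 61729), lay between 2.17 and 5.88 TPM.

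None of the 7 intron frames that passed the filter was called. AI1 had the largest fold change of them, 0.56 ± 0.247 (SE; limma adjusted p = 0.999; with the replicate block 0.56 ± 0.187, adjusted p = 0.314). That of AI2 was 0.35 ± 0.31 and that of SCEI 0.38 ± 0.208 (limma adjusted p = 0.999 for each; 0.47 and 0.431 with the block). Without naive replicate 2, AI1 was at 0.35 and AI2 at 0.10. BI4 was at 0.21 ± 0.162, AI5_BETA at 0.05 ± 0.226, AI3 at 0.004 ± 0.351 and AI4 at -0.003 ± 0.424. Of COX1, 972 of 1605 exon bases (60.6%) also belong to intron frames as annotated, and of COB 756 of 1158 (65.3%). How reads in shared exons were divided is not given in the sources used here, so values of COX1, COB and their frames are uncertain. AI1 and AI2 share 6.75% and 7.99% of their bases.

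Relative to COX1, both group II frames were higher in [BIG+] in each of the 5 pairs. This comparison was added after the values were seen. The pattern was not particular to these frames, since the log2 difference of COB was also above that of COX1 in each pair. For COB it was 0.15, 0.72, -0.09, 0.86 and -0.25 in pairs 1 to 5 (TPM + 1, [BIG+] minus naive). For COX1 it was -0.05, 0.695, -0.41, 0.32 and -0.40. OLI1 over COX1 was higher in [BIG+] in 2 of 5 pairs. The ratio of AI1 to COX1 was 0.613, 0.386, 0.189, 0.232 and 0.157 in naive replicates 1 to 5. In [BIG+] replicates 1 to 5 it was 0.767, 0.648, 0.321, 0.348 and 0.194. In both states the ratio was lower in the libraries numbered 3 to 5, where COX1 itself was higher. The mean log2 difference was 0.54 with an SD of 0.223 over the 5 pairs, and the two-sided exact permutation p was 0.0625 within pairs, the smallest that 32 sign patterns can give (0.125 adjusted over 6 such tests). Over all 252 assignments of the libraries it was 0.31 (exact permutation, 0.524 adjusted). For AI2 to COX1 the log2 difference was 0.33 with an SD of 0.143, higher in 5 of 5 pairs, with exact permutation p values of 0.0625 within pairs and 0.349 over all assignments. Neither ratio passed. Without single libraries the log2 difference ranged from 0.31 to 0.83 for AI1 to COX1 and from 0.17 to 0.54 for AI2 to COX1.

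**Figure D3:**
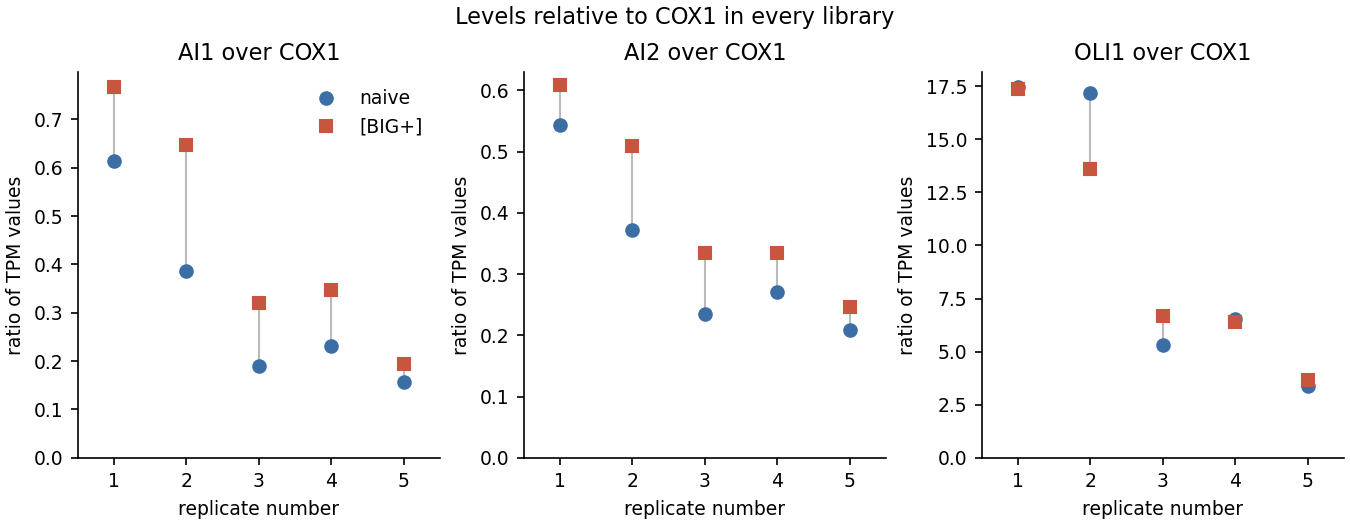
Ratio of TPM values of AI1, AI2 and OLI1 to that of COX1 (vertical axis) in each library by replicate number (horizontal axis), naive as circles, [BIG+] as squares, grey lines joining equal numbers. AI1 and AI2 over COX1 lie higher in [BIG+] at each number, from 0.157 to 0.767 for AI1. OLI1 over COX1 is higher in [BIG+] in 2 of 5 pairs. COB, not drawn, also lay higher relative to COX1 in [BIG+] at each number.

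Among the 10 remaining frames, 2 passed the filter. Q0182, which the reference does not annotate, was at 2.38, 1.19, 0.996, 1.27 and 0.701 TPM in naive and 2.62, 2.11, 1.65, 2.80 and 1.30 TPM in [BIG+] replicates 1 to 5. It was higher in [BIG+] in 5 of 5 pairs with overlap between the states, a fold change of 0.44 ± 0.195 (SE; limma adjusted p = 0.999, with the block ± 0.102 and 0.131), and so was not called. Unlike COX1 it was lowest in replicate 5 of both states. Q0255, which overlaps the last 19 bases of COX2, had a fold change of 0.18 ± 0.228. Q0010 reached at most 0.156 TPM, and Q0144 was above 0 only in [BIG+] replicate 1, at 0.151 TPM. RPM1, the RNA subunit of mitochondrial RNase P, which cuts the 5′ ends of mitochondrial tRNAs (MT, 85295 to 85777), was at 16.2, 10.9, 43.7, 34.7 and 58.2 TPM in naive and at 15.9, 21.1, 48.0, 58.8 and 24.1 TPM in [BIG+] cells. Its fold change was 0.10 ± 0.445 (SE; limma adjusted p = 0.999, 0.9 with the block). The 24 mitochondrial tRNA rows, which the rule does not cover, were at 0 in all libraries.

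The starts of the mitochondrial rRNAs are shown because both carry the conserved promoter of yeast mitochondria, ATATAAGTA, in capitals, with 20 bases before it and ending 20 bases into the rRNA gene.
15S rRNA start, MT:6442-6565: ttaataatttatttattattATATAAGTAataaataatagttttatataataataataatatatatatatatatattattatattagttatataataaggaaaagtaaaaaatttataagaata
21S rRNA start, MT:57980-58028: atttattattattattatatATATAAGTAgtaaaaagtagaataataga

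The motif begins 84 bases before the annotated 15S start and 9 bases before that of 21S. On either strand it occurs 14 times in the 85779 bases of the genome, among them 469 bases before COX1 and 574 and 652 bases before OLI1. In windows from 250 bases before to 50 after a gene's start it was found for 2 of 22 annotated members (9.09%), both of them rRNA genes, and for 69 of 6413 nuclear genes (1.08%). The 2 shares are not comparable, because G and C make up 17.1% of the mitochondrial genome and 39.7% of the median nuclear mRNA gene. Some member windows also repeat. COX1, AI1, AI2, AI3, AI4 and AI5_ALPHA all start at 13818, and COB, BI2, BI3 and BI4 at 36540. A match in letters is a description of the window.

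15S rRNA, the rRNA of the small mitochondrial ribosomal subunit (MT, 6546 to 8194), was at 68.1, 32.1, 47.7, 29.1 and 50.4 TPM in naive replicates 1 to 5. In [BIG+] replicates 1 to 5 it was at 79.8, 84.3, 113, 113 and 282 TPM. The states did not overlap, and [BIG+] was higher in 5 of 5 pairs, least in pair 1 and most in pair 5. The means were 45.5 ± 15.7 and 134 ± 83.8 TPM (SD, n = 5 each), and 97.6 ± 18.0 TPM (n = 4) in [BIG+] without replicate 5. Of all 5732 rows, 7 (0.122%) were higher in [BIG+] without overlap, and 3 of the 7 were rRNA rows: 15S and the near-identical copies RDN37-1 and RDN37-2.

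The fold change of 15S rRNA was 1.44 ± 0.328 (SE) and was not called without the block (limma adjusted p = 0.486). With the replicate block it rose by 1.44 ± 0.252 (limma adjusted p = 0.041), one of 2 rows called higher (0.0349%), the other being YHR054C. With sets of numbers as the block the adjusted p was 0.0162 (limma), where 0.0523% of rows were called higher and 0.698% lower. These sets were known from an earlier look at the data, so this fit adds no independent test. Without pair 5 the fold change of 15S rRNA was 1.18 ± 0.215 in the fit with the replicate block (limma adjusted p = 0.038). The blocked call was lost without pair 2, 3 or 4 (limma adjusted p = 0.112, 0.124 and 0.13), with median-of-ratios scaling (0.0997) and with quantile normalization (0.136). A two-sided exact permutation over 252 assignments gave p = 0.00794, the smallest possible (0.0476 adjusted over 6 tests), and within pairs p = 0.0625, also the smallest possible. 15S rRNA was singled out with earlier results of these data known.

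21S rRNA, of the large subunit (MT, 58009 to 62447), was at 0.591, 0.461, 0.530, 0.558 and 0.983 TPM in naive cells and at 1.39, 0.406, 0.484, 0.947 and 893 TPM in [BIG+] replicates 1 to 5. It passed the filter only through [BIG+] replicate 5. Without that library [BIG+] averaged 0.806 ± 0.455 TPM (SD, n = 4) against 0.625 ± 0.206 TPM (n = 5) for naive. The states then overlapped, and 21S rRNA was under the filter. With it, the fold change was 1.92 ± 1.38 (SE; limma adjusted p = 0.999, 0.553 with the block). In that library SCEI, inside the intron of 21S rRNA, was at 5.15 TPM, against 5.19 TPM in naive replicate 5.

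**Figure D4:**
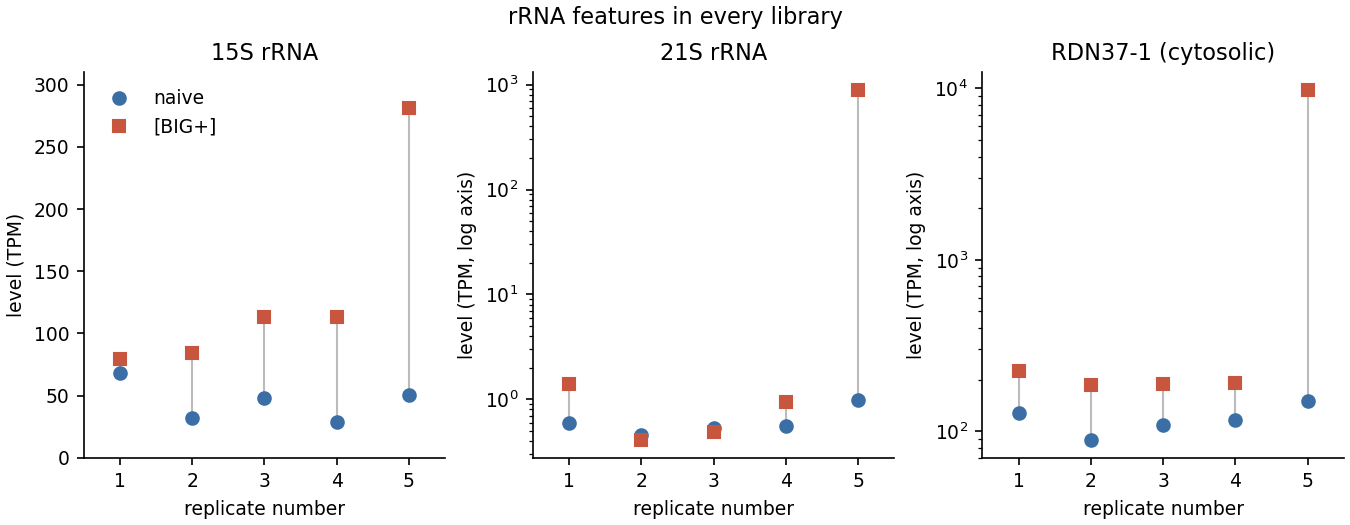
Level in TPM (vertical axis; log scale for 21S rRNA and RDN37-1) of 3 rRNA rows in each library by replicate number (horizontal axis), naive as circles, [BIG+] as squares, grey lines joining equal numbers. 15S rRNA and RDN37-1 lie higher in [BIG+] at each number, and all 3 are highest in [BIG+] replicate 5, where 21S rRNA reaches 893 TPM.

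Of cytosolic rRNA, the precursor rows RDN37-1 and RDN37-2 lay higher in [BIG+] as 15S rRNA did. How reads shared with mature rRNA rows were divided is not given, so these rows may not hold precursor alone. The sum of all 22 cytosolic rRNA rows did not follow. That sum was at 9114, 6055, 7273, 7720 and 16805 TPM in naive and at 7625, 8445, 9396, 7178 and 173080 TPM in [BIG+] replicates 1 to 5, with overlap. Without [BIG+] replicate 5 its [BIG+] mean was 8161 TPM against 9393 TPM in naive cells. RDN37-1, the row of the cytosolic rRNA precursor, was at 127, 88.4, 109, 116 and 150 TPM in naive and at 225, 185, 187, 192 and 9827 TPM in [BIG+] replicates 1 to 5, without overlap. Its fold change was 1.88 ± 0.874 (SE) and was not called with all libraries (limma adjusted p = 0.999, 0.338 with the block). Without [BIG+] replicate 5 it was 0.75 ± 0.182 and not called (limma adjusted p = 0.502). Without pair 5 it was 0.84 ± 0.108 in the blocked fit and called (limma adjusted p = 0.00722). Relative to RDN37-1, 15S rRNA was at 0.535, 0.363, 0.439, 0.251 and 0.336 in naive and 0.354, 0.455, 0.602, 0.592 and 0.0287 in [BIG+], higher in 3 of 5 pairs (exact permutation p = 0.929; without [BIG+] replicate 5, p = 0.159). The part of rRNA depletion in the 15S result was not tested. The ratio of 15S to 21S rRNA lay between 51.2 and 115.3 in naive cells, and between 57.5 and 233 in [BIG+] replicates 1 to 4. In [BIG+] replicate 5 it was 0.315. Its log2 difference was -0.84 (exact permutation p = 0.96) and 0.91 without that library (exact permutation p = 0.0952), so its sign rested on 1 library. In naive cells and in [BIG+] replicates 1 to 4 this ratio divides by 0.406 to 1.39 TPM of 21S rRNA. These values are mostly under the filter of 1 TPM.

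**Figure D5:**
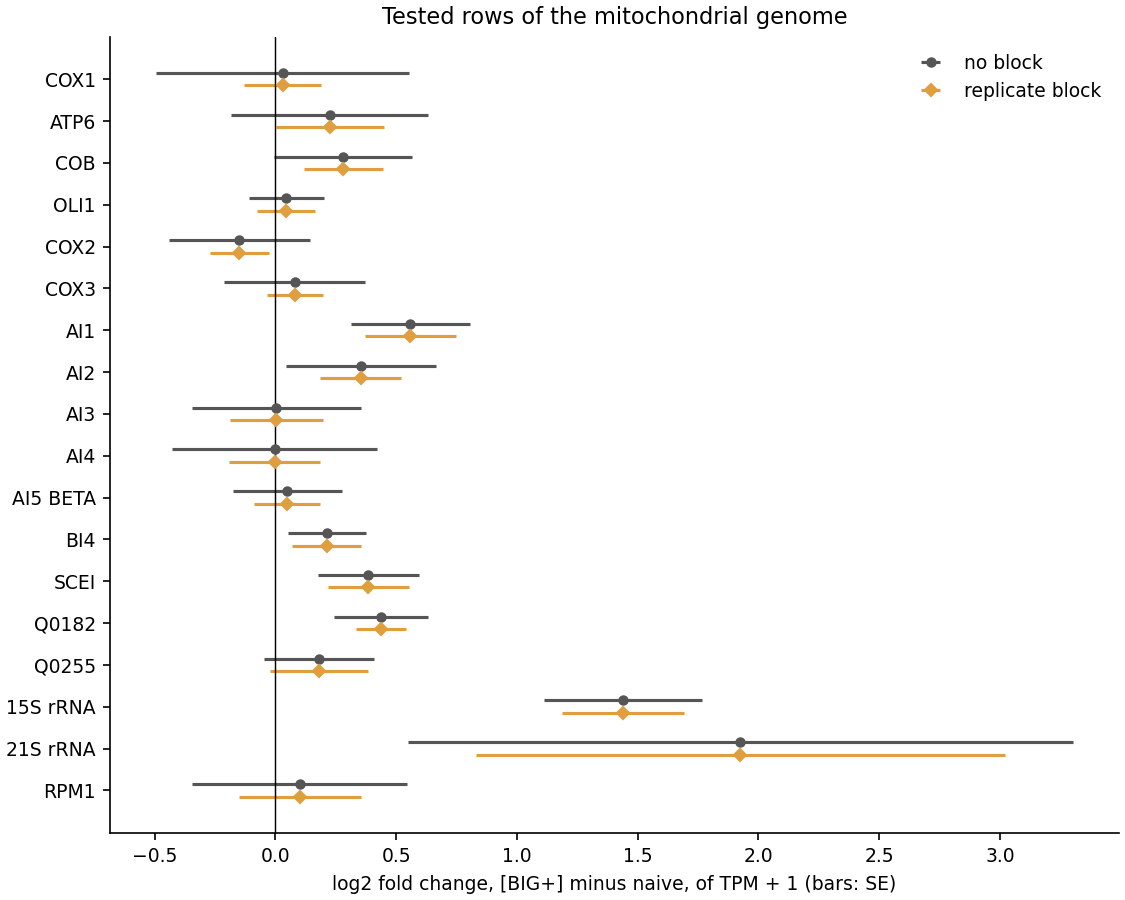
Fold change between the states as log2 of TPM + 1, [BIG+] minus naive (horizontal axis, bars are SE), of the 18 mitochondrial rows that passed the filter, from the fit without a block (circles) and with the replicate block (diamonds). 15S rRNA lies at 1.44, 21S rRNA at 1.92 with an SE of 1.38, and the mRNA rows lie between -0.15 and 0.56.

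Nuclear genes that make, process and translate mitochondrial RNA gave 1 call, that of NCA3. For comparison, 1895 of 5647 tested nuclear mRNAs (33.6%) had positive fold changes, with a median of -0.06. In mitochondrial transcription 2 of 5 genes were positive (median -0.02), and RPO41, the polymerase, averaged 10.2 ± 3.25 and 9.88 ± 2.18 TPM (SD, n = 5 each). In RNA processing and decay 1 of 7 was positive (median -0.07), in intron splicing 4 of 10 (-0.04), in mitochondrial DNA maintenance 3 of 12 (-0.05), in rRNA modification 0 of 3 (-0.05) and in translation factors 4 of 9 (-0.01). None of their members was called in either fit, where 0% of all rows were called without and 0.611% with the block.

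Of 19 tested translational activators and mRNA stability factors 4 had positive fold changes (median -0.07), and 1 was called in the blocked fit. NCA3, which in yeast acts with NCA2 on the mRNA that carries ATP8 and ATP6, was at 4.95, 5.38, 4.66, 4.66 and 8.65 TPM in naive cells. In [BIG+] cells it was at 3.49, 3.00, 1.99, 1.81 and 3.16 TPM. The states did not overlap, as for 15 rows (0.262%) lower in [BIG+]. It fell by 0.84 ± 0.119 on the log2 scale with the replicate block (SE; limma adjusted p = 0.0144), where 0.576% of all rows were called lower, and was not called without it (limma adjusted p = 0.486). With median-of-ratios scaling or quantile normalization it was called without a block too (limma adjusted p = 0.042 and 0.0484). Its fold change ran from -1.05 with a pseudocount of 0.1 to -0.30 with 10. The blocked call was lost without pair 3 or 4 (limma adjusted p = 0.0787 and 0.0546). MAM33, the most abundant of the list, averaged 22.8 ± 9.99 and 23.2 ± 7.63 TPM (SD, n = 5 each) and was not called.

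Protein partners of the mitochondrial products were also without calls. Positive fold changes were found for 25 of 32 proteins of the small mitochondrial ribosomal subunit, which binds 15S rRNA (median 0.07), and for 28 of 44 of the large one (0.04). They were found for 5 of 9 nuclear subunits of the bc1 complex (0.02), 8 of 10 of cytochrome c oxidase (0.05) and 11 of 16 of ATP synthase (0.07). The most abundant, ATP15, averaged 1474 ± 128 and 1507 ± 134 TPM (SD, n = 5 each). Assembly factors of these complexes were positive in 9 of 23 cases (median -0.03). Of 10 genes of the retrograde response, which in yeast answers to loss of mitochondrial function, 1 was positive (median -0.16), and ACO1, a mitochondrial aconitase, averaged 178 ± 83.2 and 149 ± 58.5 TPM. None of these members was called in either fit (0% of all rows without the block, 0.611% with it).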

How the data were processed

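Total RNA was treated with Ribo-Zero, fragmented and sequenced, per the labels' protocols. The authors deposited 1 table of TPM values. Bowtie2, HTSeq and build R64 are named in the submitters' processing notes. The sources used here give no versions, strand use, gene lengths or way of dividing shared reads. The deposited table has 26 values above 0 and under 1e-06 TPM. 4 emptied lines were left out.

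The test was limma (version 3.58.1, R 4.3.3; two-sided, lmFit, then eBayes with trend) on log2(TPM + 1). It covered the 5732 rows whose mean reached 1 TPM, and p values were adjusted over all of them by Benjamini-Hochberg. As a check of the code, limma was also run on simulated normal values in which equal numbers shared a part. Such a run cannot show whether they do so in these data. Single values and ratios were tested by two-sided exact permutation (scipy 1.17.1). Same-numbered libraries deviated together (correlations 0.743, 0.569, 0.531, 0.355 and 0.475, each above 0.1). The labels give no day or batch shared by equal numbers. Treating equal numbers as pairs therefore rests on these same values, and naive replicates 2 and 4 were closest to [BIG+] replicates 1 and 3. The fit without a block was the main one. Errors of levels are SD and of fold changes SE.

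Every member was to be named with values at a mean of at least 1 TPM; of each nuclear list, up to 3 called members and the most abundant one, or counts alone where no member passed. Alternatives were other blocks, pseudocounts, filters and scalings and left-out libraries or pairs. Members, lists and alternatives were chosen with earlier results of these data known.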

Additional observations from a re-analysis of the deposited data

Results flagged for a closer look

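Within a group of 5 libraries, a value was marked where its gap to the nearest other library was over 0.71 of the group's range, which chance gives in about 1 in 20 groups. The rule was applied to 23 members in naive and 24 in [BIG+] libraries, so some marks are to be reckoned with by chance. 15S rRNA was far above the other [BIG+] libraries in [BIG+] replicate 5, at 282 TPM. 21S rRNA was at 893 TPM in the same library. In naive cells 21S rRNA was highest in replicate 5, at 0.983 TPM. BI3 was highest of the naive libraries in replicate 1, at 0.274 TPM, and Q0144 was above 0 only in [BIG+] replicate 1, at 0.151 TPM. A member above 0 in only 1 library of a group, as Q0144 was, always meets this rule. In rows outside the comparison, RDN25-1 was at 38136 TPM and RDN18-1 at 32935 TPM in [BIG+] replicate 5, where all naive libraries were listed at 0. What set that library apart was not tested.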

How the results depend on the processing

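Without a block, 0 rows were called in either direction over all 5732 (limma; 96 at an unadjusted p under 0.05), and 1 lower with a filter of 10 TPM and 3 lower with median-of-ratios, quantile or nuclear mRNA scaling. With the replicate block 2 rows were called higher and 33 lower, and with sets of numbers as the block 3 and 40. With the set block the counts were 17 and 35 without [BIG+] replicate 5. With the replicate block and a pseudocount of 0.1 the counts were 2 and 30, with 10 they were 3 and 28, with nuclear mRNA scaling 2 and 32, with median-of-ratios scaling 1 and 13 and with quantile normalization 1 and 16. Leaving out single libraries gave 0 and 0, and leaving out single pairs 1 to 9 higher and 8 to 26 lower. No mitochondrial mRNA row was called under any of these settings.

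15S rRNA kept its direction throughout. It was called at 1.44 with either block, 1.46 and 1.28 with the block and a pseudocount of 0.1 or 10, 1.44 with the block and nuclear mRNA scaling, and 1.18 with the set block without [BIG+] replicate 5. Without single libraries it lay between 1.13 and 1.60, and without single pairs between 1.18 and 1.74. The log2 ratio of 15S to 21S rRNA lay between -1.47 and 0.91 without single libraries and -1.44 and 0.79 without single pairs, and that to RDN37-1 between -0.71 and 0.39 and -0.84 and 0.36. 21S rRNA has no value without [BIG+] replicate 5 or pair 5, being under the filter then. RDN37-1 lay between 0.75 and 2.18 without single libraries and 0.84 and 2.17 without single pairs.

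Uncalled fold changes near 0 changed sign with small steps. COX1 was at -0.0025 with quantile normalization and AI3 at -0.026 with a pseudocount of 10, and AI4 was at 0.027 with a pseudocount of 0.1, 0.060 with median-of-ratios scaling, 0.063 with quantile normalization and 0.000339 with nuclear mRNA scaling, alike with and without the block, and at 0.084 with the set block without [BIG+] replicate 5. Without single libraries the ranges were -0.30 to 0.40 for COX1, -0.069 to 0.55 for ATP6, -0.040 to 0.10 for OLI1, -0.30 to 0.049 for COX2, -0.073 to 0.29 for COX3, -0.24 to 0.28 for AI3, -0.31 to 0.33 for AI4, -0.14 to 0.17 for AI5_BETA and -0.22 to 0.36 for RPM1. Those of AI1 and AI2 were 0.35 to 0.72 and 0.098 to 0.58, without a change of sign. Without single pairs they were -0.14 to 0.14 for COX1, -0.04 to 0.13 for OLI1, -0.01 to 0.15 for COX3, -0.17 to 0.18 for AI3, -0.23 to 0.17 for AI4, -0.09 to 0.14 for AI5_BETA and -0.10 to 0.44 for RPM1. The causes were not tested. With no depth, counting error is unknown.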
